A study of Mus with 9 samples.

Results

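The cell cycle and DNA replication genes described here are a list of 45 genes given by name, out of the 54532 genes of a kidney RNA sequencing table. The list was drawn up with earlier results of these data known, so the choice of genes is not independent of them. All 45 passed the filter on low counts, which left 15902 genes to test. They cover the proliferation markers (2 genes), the G1 cyclins with Cdk2 and the transcription factors of the cycle (9), replication licensing and the replication fork (9), nucleotide supply (3), the mitotic cyclins, kinases and checkpoint (13), and the spindle, kinetochore and cytokinesis (9).

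The study asked how O304, a small molecule that activates the energy-sensing kinase AMPK, acts on the ageing kidney. Kidney RNA came from male C57BL/6 mice, and every mouse had lost 1 kidney by surgery at the age of 18 months. The 3 mice of the 18 mo group were killed 1 week after that surgery. The 3 mice of the 21 mo group lived to 21 months and were given saline, and the 3 mice of the 21 mo/O304 group were given O304 at 10 mg/kg/day by intraperitoneal injection for 12 weeks up to the same age. Each mouse gave 1 library, and mice are numbered by their replicate. When 18 mo mice are compared with older ones, age, time since the loss of the kidney and the injections cannot be told apart, while 21 mo and 21 mo/O304 mice differed by the drug. Removal of a kidney is itself known to drive growth of the kidney that stays, so none of the groups is an unoperated control.

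A dividing cell passes from G1, where D-type and E-type cyclins with their kinases release the E2F transcription factors, into S phase, where the MCM helicase opens the DNA and the clamp PCNA holds the polymerase on it. In G2 and mitosis cyclin B with Cdk1, the Aurora and Polo kinases and the spindle take over, and the anaphase-promoting complex ends the division. Most tubule cells of the adult kidney are at rest, and they are known to enter the cycle again after injury or loss of renal mass. Many of these genes are transcribed only in cycling cells, so that in whole tissue their RNA is often read as a sign of proliferation. In bulk RNA a change in the number of cells that express a gene cannot be told apart from a change in RNA per cell.

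The counts on genes summed to between 15636378 and 18396725 per library, at which 1 count was worth 0.0458 to 0.0669 CPM (counts scaled to a common library size and composition). Every list of kidney cell markers was detected, with the 10 proximal tubule markers at a summed 14545 to 18117 CPM in the 18 mo libraries. The mice of the 21 mo group were not alike. Over all tested genes, log2 CPM had a Pearson correlation of 0.956 between mice 1 and 2. It was 0.935 between mice 2 and 3 and 0.881 between mice 1 and 3. Pairs of mice within the other groups had 0.972 to 0.983. The split of mouse 1 from mice 2 and 3 described below is thus not that of all genes. In mice 2 and 3 the 8 markers of injured tubule summed to 12477 and 14748 CPM. Mouse 1 had 1416 CPM and the other 6 libraries of the series had 784 to 1194 CPM. Most of these sums was Spp1, at 11162 and 12555 CPM in mice 2 and 3 and 1235 CPM in mouse 1. Havcr1 was at 475 and 61.2 CPM, Lcn2 at 323 and 1258 CPM and Krt20 at 20.7 and 14.4 CPM in mice 2 and 3. Mouse 1 had 11.6, 17.5 and 1.00 CPM of Havcr1, Lcn2 and Krt20. Counts over the members that rest on the 21 mo group are therefore given with all of its mice and with mice left out, as are the values of the genes most affected.

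The members were expressed at low levels. Their mean FPKM, a level per length of transcript that allows genes to be compared, went from 0.1505 for E2f8 to 26.9 for Ccnd1 (cyclin D1). Pcna followed at 19.6, and then Mcm6 at 6.30, Mcm7 at 5.10 and Rrm2 at 3.04. Among the 45 genes, 20 had a mean FPKM of at least 1. A single library held between 3 and 3604 counts of a member, and 36 of the 45 had at least 10 counts in every library. The precision of the lowest genes (E2f8, Ccne1, Bub1, Cdc6) is accordingly poor.

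In the 21 mo group, mice 2 and 3 had high levels of most cell cycle genes and mouse 1 had low levels. Relative to the mean of the 18 mo mice, the median log2 CPM difference of the 45 genes was 1.19 in mouse 2, 0.86 in mouse 3 and −0.69 in mouse 1. The 18 mo mice themselves lay between −0.09 and 0.18. All 21 mo/O304 mice were on the low side, at −0.71, −0.38 and −0.62. Mouse 2 of the 21 mo group had the highest value of all 9 libraries in 31 of the 45 genes, and mouse 3 in 11. Over all tested genes the shares were 10.7% and 28.9%, so the 11 genes of mouse 3 (24.4%) are not above its background. No 21 mo/O304 mouse and not mouse 1 of the 21 mo group had the highest value of any. Mouse 1 had the lowest value of the 9 libraries in 15 genes, and 21 mo/O304 mice 1 and 3 in 12 and 10. These libraries were the lowest in 8.60%, 8.07% and 9.77% of all tested genes.

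Read against the range of the 18 mo mice, 41 of the 45 genes lay above it in mouse 2 of the 21 mo group and 38 in mouse 3, where 37.3% and 41.3% of all tested genes did. In mouse 1, 32 of the 45 lay below the 18 mo range and 3 above, against 33.4% and 31.1% of all tested genes. In 21 mo/O304 mice 1, 2 and 3, the numbers below the 18 mo range were 31, 23 and 34, against 30.5%, 32.5% and 31.3% of all tested genes. The heat map of the members by mouse shows this pattern gene by gene.

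**Figure D1:**
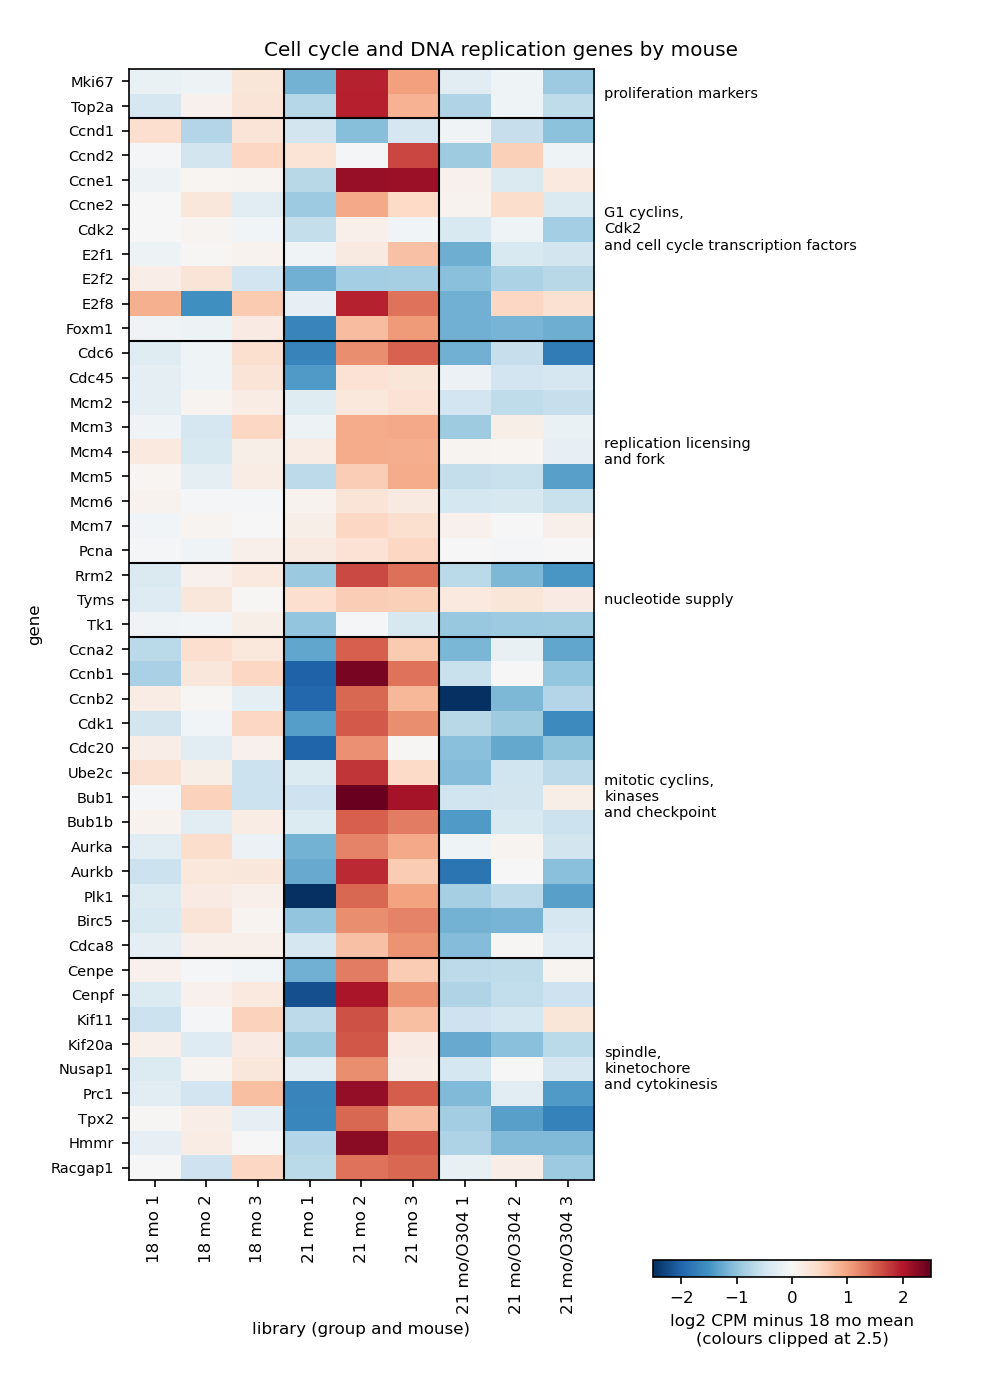
Colours show log2 CPM minus the mean of the 18 mo mice for each of the 45 genes (vertical axis, by role) in each of the 9 libraries (horizontal axis), from blue (lower) to red (higher). Mice 2 and 3 of the 21 mo group are red in most genes, while mouse 1 of that group is blue in 32 genes that lie below the 18 mo range, as are most genes of the 21 mo/O304 mice.

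The spread between mice followed from this. The median SD of log2 CPM within a group was 1.16 over the 45 genes for 21 mo mice, 0.29 for 18 mo mice and 0.38 for 21 mo/O304 mice. Over all tested genes it was 0.37, 0.18 and 0.20. The 21 mo group had the widest spread of the groups in 39 of the 45 genes, and also in 10385 of the 15902 tested genes. Its highest mouse exceeded its lowest 20.8 times for Ccnb1 (cyclin B1), 18.9 times for Cenpf, 15.97 times for Plk1 and 8.64 times for Mki67, but 1.23 times for Pcna and 1.18 times for Mcm6. The ratio was lowest for Tyms, at 1.14. These 7 genes were picked after their values were seen.

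None of the 45 genes passed an adjusted p under 0.05 in any of the 3 comparisons with edgeR's quasi-likelihood test on all 9 libraries. For 21 mo against 18 mo, 8 of the 45 had an unadjusted p under 0.05, of which 7 were higher and 1 lower. Across all tested genes 14% were higher and 12% lower at that threshold, and 0.0189% (3 genes) passed the adjusted one, so the 7 of 45 is close to the background. In either direction these shares were 26.1% of all tested genes in this comparison, 20.7% in 21 mo/O304 against 21 mo and 9.66% in 21 mo/O304 against 18 mo mice. For 21 mo/O304 against 21 mo, 26 of the 45 had an unadjusted p under 0.05 and all 26 were lower, where 12.4% of all tested genes were lower and 8.27% higher, and 0% passed the adjusted threshold. For 21 mo/O304 against 18 mo, 4 of the 45 did and all were lower, where 5.33% of all tested genes were lower and 4.33% higher, and 0% passed the adjusted threshold. The comparisons share groups, so their counts are not independent of each other.

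The fold changes were mostly in 1 direction. In 21 mo against 18 mo mice, 40 of the 45 genes were higher and 5 lower, at a median log2 fold change of 0.65 and a range of −0.98 to 1.73. The median of all tested genes was 0.03. Against 21 mo mice, 43 of the 45 were lower in 21 mo/O304 mice and 2 higher, with a median of −1.23 and a range of −2.45 to 0.11, and the median of all tested genes was −0.02. Against 18 mo mice, 41 were lower in them and 4 higher, with a median of −0.57 and a range of −1.29 to 0.24, and the median of all tested genes was 0.0028.

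**Figure D2:**
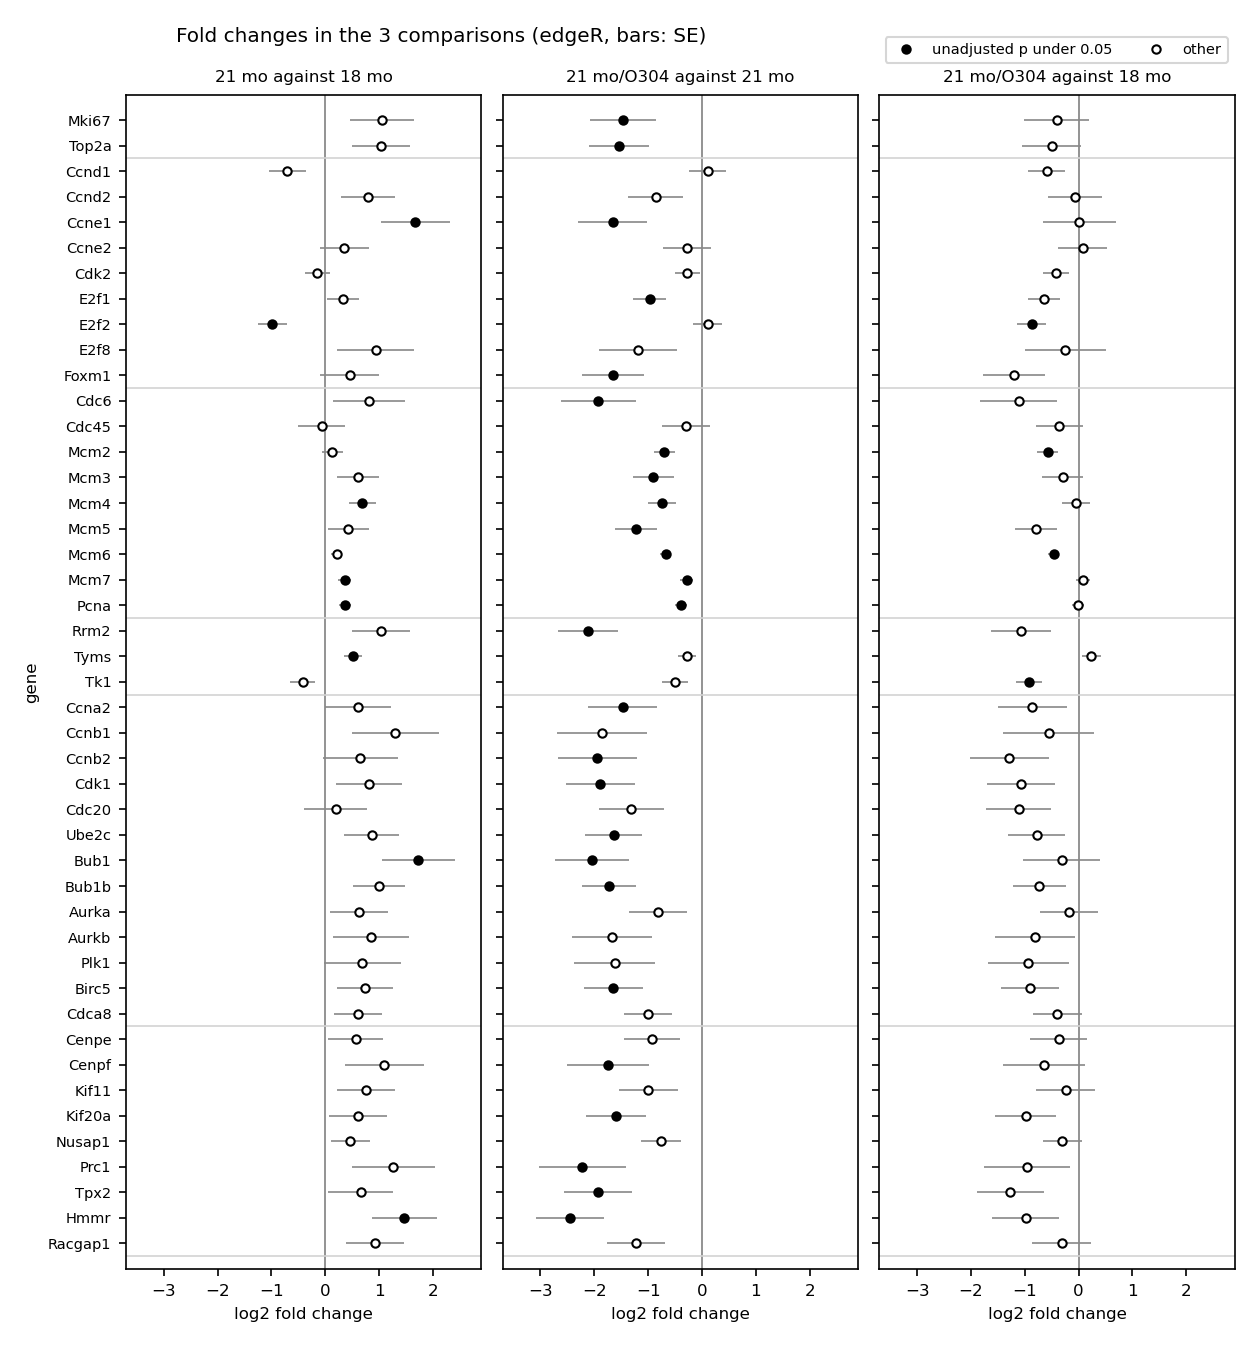
Points show the log2 fold change of each of the 45 genes (vertical axis) in the 3 comparisons, with bars for the standard error from edgeR; filled points have an unadjusted p under 0.05 and grey lines part the roles. In 21 mo/O304 against 21 mo mice 26 points are filled and all of them lie on the lower side, while no point in any panel passed the adjusted threshold.

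The groups were also compared by whether their mice overlapped at all. In 3 of the 45 genes (Pcna, Mcm7 and Tyms) every 21 mo mouse was above every 18 mo mouse, and in E2f2 every one was below, where 13.5% and 15.3% of all tested genes were so placed. Every 21 mo/O304 mouse was below every 21 mo mouse in 10 genes, which were E2f1, Mcm2, Mcm4, Mcm6, Mcm7, Pcna, Tyms, Ube2c, Bub1b and Hmmr, and above in none. The background there was 10.5% below and 10.8% above. Every 21 mo/O304 mouse was below every 18 mo mouse in 20 of the 45 genes, above in none, and the background was 13.3% below and 13.2% above. With 3 mice against 3, the exact permutation test of a single gene cannot give a p under 0.1.

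The calls turned on mouse 1 of the 21 mo group. Without it, 21 of the 45 genes passed the adjusted threshold in 21 mo against 18 mo mice, all of them higher, with 1.08 as the median log2 fold change over the 45 and 13.6% of all tested genes called higher. Without it 36 of the 45 also passed in 21 mo/O304 against 21 mo mice, all of them lower, with a median of −1.65 and 12.6% of all tested genes called lower. Leaving out mouse 2 instead moved both medians towards 0. The median was then 0.26 in 21 mo against 18 mo mice, with 33 of the 45 genes higher and 12 lower, and −0.76 in 21 mo/O304 against 21 mo mice, with 43 lower and 2 higher. Without mouse 3 the medians were 0.51 and −1.14. Leaving out any of the other 8 libraries left 0 of the 45 past the adjusted threshold in each of these comparisons. The 8 genes of the first comparison at an unadjusted p under 0.05 became 34 without mouse 1, where 40.2% of all tested genes passed that threshold in either direction. They became 4 without mouse 2, at 20% of all tested genes, and 4 without mouse 3, at 22.1%. Without 18 mo mouse 1 there were 4, at 20.6%, and without 18 mo mouse 3 there were 5, at 19.3%. The 26 genes of the second comparison became 38 without mouse 1, at 38.7% of all tested genes, and 9 without mouse 2, at 15.2%. They became 14 without 21 mo/O304 mouse 1, at 15%, and 15 without 21 mo/O304 mouse 3, at 12.3%. The 4 genes of the third comparison became 17 without 21 mo mouse 1, at 12.5%, and 7 without 21 mo mouse 3, at 15.3%. No 21 mo mouse enters that difference, but the fit on all 9 libraries shares 1 estimate of the spread per gene. The spread of the 21 mo mice thus enters its standard errors and p-values. With only the 6 libraries compared, the count was 17 of 43 members tested.

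**Figure D3:**
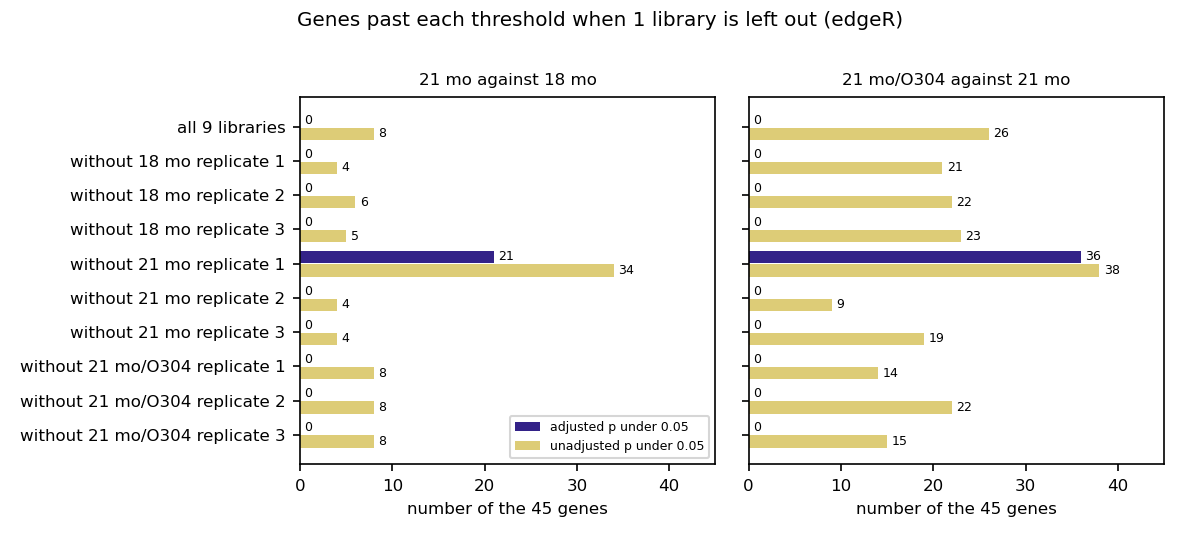
Bars give the number of the 45 genes past the adjusted (dark) and the unadjusted (light) threshold of 0.05 in edgeR, on the horizontal axis, with all 9 libraries and with each library left out in turn. The adjusted count is 0 in every row but that without 21 mo replicate 1, where it is 21 in the left panel (21 mo against 18 mo) and 36 in the right panel (21 mo/O304 against 21 mo).

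Other tools gave other counts, and why DESeq2 and edgeR differed was not tested. DESeq2 called 1 of the 45 genes in 21 mo against 18 mo mice, which was E2f2 and was lower, at a background of 12.3% of genes called in either direction. In 21 mo/O304 against 21 mo mice it called 10 (Bub1b, Cdk1, E2f1, Hmmr, Mcm2, Mcm5, Mcm6, Rrm2, Tpx2 and Ube2c), all lower, at a background of 5.75%, and in 21 mo/O304 against 18 mo mice 0 at a background of 0.884%. Limma voom with sample quality weights gives less weight to libraries that stand apart. It called 38 of the 45 in the first comparison at a background of 52.9% and 40 in the second at 41.1%. In the third it called 2 (Mcm6 and Tk1) at 2.61%. The weights were not listed, so the share of each 21 mo mouse in these calls is not known. The voom median of the 45 in the first comparison was 1.16, where 21 mo mice 1, 2 and 3 lay at −0.69, 1.19 and 0.86.

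Both proliferation markers followed the pattern of the 21 mo mice. Mki67 encodes Ki-67, the nuclear protein of cycling cells, and lies on chromosome 7 from 135689784 to 135716361 (GRCm38, on the minus strand). Its level was 7.25, 7.52 and 10.01 CPM in the 18 mo mice, 3.61, 31.2 and 16.6 CPM in the 21 mo mice, and 6.75, 7.57 and 4.33 CPM in the 21 mo/O304 mice. Mice 2 and 3 of the 21 mo group were above the other 7 and mouse 1 was the lowest of the 9, so the groups overlapped. The means were 8.26 ± 1.52, 17.1 ± 13.8 and 6.21 ± 1.68 CPM (SD, n = 3). Mki67 had a log2 fold change of 1.05 in 21 mo against 18 mo mice (SE 0.60, edgeR adjusted p = 0.289) and −1.46 in 21 mo/O304 against 21 mo mice (SE 0.61, edgeR adjusted p = 0.226). Without 21 mo mouse 1 these were 1.55 (edgeR adjusted p = 0.0130) and −1.95 (edgeR adjusted p = 0.00908), whereas without mouse 2 they were 0.28 (edgeR adjusted p = 0.799) and −0.70 (edgeR adjusted p = 0.512).

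Top2a, whose product topoisomerase II alpha untangles replicated chromosomes, lies on chromosome 11 from 98992943 to 99024189 (GRCm38). It stood at 4.89, 7.02 and 8.15 CPM in the 18 mo mice, at 4.01, 25.2 and 12.002 CPM in the 21 mo mice, and at 3.90, 6.08 and 4.20 CPM in the 21 mo/O304 mice. Mice 2 and 3 of the 21 mo group were again highest, and mouse 1 lay within the range of the 21 mo/O304 mice. The log2 fold changes of Top2a were 1.04 (SE 0.54, edgeR adjusted p = 0.257) and −1.54 (SE 0.55, edgeR adjusted p = 0.195) in the same order, and 1.49 (edgeR adjusted p = 0.0202) and −1.98 (edgeR adjusted p = 0.0108) without 21 mo mouse 1. Leaving out mouse 2 gave 0.25 (edgeR adjusted p = 0.785) and −0.76 (edgeR adjusted p = 0.421) for Top2a.

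The regulators of G1 were the most mixed of the roles. Among the 9 genes, 6 were higher and 3 lower in 21 mo against 18 mo mice (median log2 fold change 0.35, range −0.98 to 1.67), and 7 were lower and 2 higher in 21 mo/O304 against 21 mo mice (median −0.86, range −1.66 to 0.11). At an unadjusted p under 0.05 there were 2 in the first comparison, 1 in each direction, where 14% of all tested genes were higher and 12% lower. In the second there were 3, all lower, where 12.4% of all tested genes were. Without 21 mo mouse 1, 2 genes passed the adjusted threshold in the first comparison and 3 in the second. Of all tested genes 13.6% were then called higher in the first and 12.6% lower in the second.

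Ccnd1, the cyclin that starts G1 progression with Cdk4 and Cdk6, did not share the pattern of the other genes. It lies on chromosome 7 from 144929931 to 144939925 (GRCm38), where Oraov1 overlaps it. Its level was 216, 97.2 and 204 CPM in the 18 mo mice, 118, 77.4 and 122 CPM in the 21 mo mice, and 154, 109 and 80.2 CPM in the 21 mo/O304 mice. Mouse 2 of the 21 mo group, the highest in most members, was here the lowest of the 9. Ccnd1 had a log2 fold change of −0.70 in 21 mo against 18 mo mice (SE 0.34, edgeR adjusted p = 0.227) and 0.11 in 21 mo/O304 against 21 mo mice (SE 0.34, edgeR adjusted p = 0.864), and the latter was −0.07 without 21 mo mouse 2 and −0.18 without 21 mo/O304 mouse 1.

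Ccne1 encodes cyclin E1, the partner of Cdk2 at the entry to S phase. It was at 0.495 to 0.566 CPM in the 18 mo mice and at 0.417 to 0.637 CPM in the 21 mo/O304 mice, while the 21 mo mice had 0.334, 2.44 and 2.38 CPM. In counts these 21 mo values are 5, 43 and 52, and all other libraries had 7 to 10. Ccne1 had in 21 mo against 18 mo mice a log2 fold change of 1.67 (SE 0.64, edgeR adjusted p = 0.147), and 2.16 (edgeR adjusted p = 0.00788) without 21 mo mouse 1; Ccne1 was named after its values were seen. Ccne2, which encodes cyclin E2 and overlaps the more abundant Ints8, was at 1.75 to 2.59 CPM in the 18 mo mice and at 1.14, 4.09 and 2.98 CPM in the 21 mo mice. Ccnd2, for cyclin D2, was highest in 21 mo mouse 3 at 38.4 CPM, with 15.4 and 11.8 CPM in mice 1 and 2.

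Cdk2 itself differed less between the mice than the mitotic genes did. Its values were 13.3, 13.9 and 12.7 CPM in the 18 mo mice, 8.83, 14.5 and 12.6 CPM in the 21 mo mice, and 10.2, 12.3 and 7.32 CPM in the 21 mo/O304 mice. Every 21 mo/O304 mouse was below every 18 mo mouse, while the 21 mo mice overlapped both groups. The log2 fold changes of Cdk2 were −0.15 in 21 mo against 18 mo mice (SE 0.24, edgeR adjusted p = 0.719) and −0.27 in 21 mo/O304 against 21 mo mice (SE 0.24, edgeR adjusted p = 0.511). The first was 0.05 without 21 mo mouse 1, so its direction is not settled. In 21 mo/O304 against 18 mo mice Cdk2 had a log2 fold change of −0.42 (SE 0.24, edgeR adjusted p = 0.617).

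The E2F factors went separate ways. E2f2, an activating E2F on chromosome 4 from 136172394 to 136196057 (GRCm38), was at 7.74, 8.63 and 4.98 CPM in the 18 mo mice, at 3.01, 3.86 and 3.89 CPM in the 21 mo mice and at 3.37, 3.99 and 4.27 CPM in the 21 mo/O304 mice. All 6 of the older mice were below all 3 of the younger ones, and mouse 1 of the 21 mo group was not apart from mice 2 and 3. E2f2 had a log2 fold change of −0.98 in 21 mo against 18 mo mice (SE 0.26, edgeR adjusted p = 0.0835) and −0.87 in 21 mo/O304 against 18 mo mice (SE 0.26, edgeR adjusted p = 0.361). E2f2 had the smallest p of the 45 genes in the first of these comparisons.

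E2f1, an activator of S-phase genes, was at 4.95, 5.55 and 5.77 CPM in the 18 mo mice, 5.08, 6.37 and 9.02 CPM in the 21 mo mice and 2.33, 4.17 and 3.95 CPM in the 21 mo/O304 mice. Every 21 mo/O304 mouse was below the other 6 mice. E2f1 had in 21 mo/O304 mice a log2 fold change of −0.97 against 21 mo mice (SE 0.30, edgeR adjusted p = 0.177) and −0.64 against 18 mo mice (SE 0.30, edgeR adjusted p = 0.537). Foxm1, the transcription factor of the G2 and mitosis genes, held an even low level in the 21 mo/O304 mice, at 1.28, 1.31 and 1.27 CPM, against 2.71 to 3.39 CPM in the 18 mo mice and 0.937, 5.001 and 6.18 CPM in the 21 mo mice. Foxm1 had in 21 mo/O304 against 21 mo mice a log2 fold change of −1.65 (SE 0.57, edgeR adjusted p = 0.187), and −2.12 (edgeR adjusted p = 0.00532) without 21 mo mouse 1; Foxm1 was named after its values were seen.

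Of the 9 genes of licensing and the fork, 8 were higher and 1 lower in 21 mo against 18 mo mice (median log2 fold change 0.37, range −0.07 to 0.81), and all 9 were lower in 21 mo/O304 against 21 mo mice (median −0.70, range −1.92 to −0.28). At an unadjusted p under 0.05 there were 3 higher in the first comparison and 8 lower in the second, where 14% of all tested genes were higher and 12.4% lower. The 8 of 9 was the largest share past that threshold among the roles of more than 2 genes in the second comparison. The standard errors there went from 0.11 for Mcm6 and Pcna to 0.70 for Cdc6, which had the range's lowest fold change. Without 21 mo mouse 1, 3 and 8 of the 9 passed the adjusted threshold in the first and second comparison. Of all tested genes 13.6% were then called higher in the first and 12.6% lower in the second.

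Mcm6, a subunit of the MCM2-7 helicase on chromosome 1 from 128331590 to 128359664 (GRCm38), was the gene with the smallest p of the 45 in 21 mo/O304 against 21 mo mice. Its level was 33.8, 30.7 and 30.3 CPM in the 18 mo mice, 33.4, 39.4 and 36.9 CPM in the 21 mo mice and 23.3, 24.0 and 21.4 CPM in the 21 mo/O304 mice. Every 21 mo/O304 mouse was below every other mouse of the series. Mcm6 had in 21 mo/O304 mice a log2 fold change of −0.68 against 21 mo mice (SE 0.11, edgeR adjusted p = 0.175) and −0.47 against 18 mo mice (SE 0.11, edgeR adjusted p = 0.325), and one of 0.21 in 21 mo against 18 mo mice (SE 0.11, edgeR adjusted p = 0.255). With 21 mo mouse 1 left out, the fold change against 21 mo mice was −0.75 (edgeR adjusted p = 0.00768).

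Mcm2, another helicase subunit, was placed likewise, with 15.1, 18.8 and 20.3 CPM in the 18 mo mice, 14.6, 21.4 and 23.04 CPM in the 21 mo mice and 12.8, 11.6 and 12.03 CPM in the 21 mo/O304 mice. Mcm2 had in 21 mo/O304 mice a log2 fold change of −0.70 against 21 mo mice (SE 0.20, edgeR adjusted p = 0.175) and −0.57 against 18 mo mice (SE 0.20, edgeR adjusted p = 0.424), and the former was −0.88 (edgeR adjusted p = 0.0107) without 21 mo mouse 1. Mcm5 had 8.92, 7.33 and 9.90 CPM in the 18 mo mice, 5.49, 13.2 and 16.5 CPM in the 21 mo mice and 5.76, 5.90 and 3.37 CPM in the 21 mo/O304 mice. Its 21 mo mouse 1 lay inside the range of the 21 mo/O304 mice. Mcm5 had in 21 mo/O304 against 21 mo mice a log2 fold change of −1.23 (SE 0.39, edgeR adjusted p = 0.180), and −1.57 (edgeR adjusted p = 0.00984) without 21 mo mouse 1; Mcm5 was named there after its values were seen.

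Of the other helicase subunits, Mcm7 was above the 18 mo range in all 21 mo mice, and Mcm3 and Mcm4 in mice 2 and 3 but not in mouse 1. Mcm4 was at 9.60, 6.22 and 9.05 CPM, then 9.23, 15.5 and 15.4 CPM, then 8.49, 8.46 and 7.07 CPM in the 18 mo, 21 mo and 21 mo/O304 mice, with a log2 fold change of 0.69 in 21 mo against 18 mo mice (SE 0.25, edgeR adjusted p = 0.135), and 0.91 (edgeR adjusted p = 0.0197) without 21 mo mouse 1. Mcm7 was at 19.9, 22.0 and 20.8 CPM, then 23.3, 29.7 and 27.7 CPM, then 22.5, 20.9 and 22.9 CPM, with a log2 fold change of 0.36 (SE 0.12, edgeR adjusted p = 0.117), and 0.47 (edgeR adjusted p = 0.0225) without that mouse. Mcm7 overlaps Cops6 and Ap4m1 and holds Mir25, Mir93 and Mir106b, so reads of these genes may be shared. Mcm3 was at 4.87 to 9.39 CPM in the 18 mo mice, 6.02 to 12.6 CPM in the 21 mo mice and 3.55 to 7.21 CPM in the 21 mo/O304 mice.

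Pcna, the sliding clamp of the replication fork, lies on chromosome 2 from 132249162 to 132253314 (GRCm38), and pseudogenes of it are annotated elsewhere. It stood at 42.9, 42.0 and 48.4 CPM in the 18 mo mice, 51.7, 56.9 and 63.5 CPM in the 21 mo mice and 44.0, 43.5 and 44.0 CPM in the 21 mo/O304 mice. All 21 mo mice, mouse 1 included, were above the 6 other mice, and the 21 mo/O304 mice lay inside the 18 mo range. Pcna had a log2 fold change of 0.37 in 21 mo against 18 mo mice (SE 0.11, edgeR adjusted p = 0.0933) and −0.39 in 21 mo/O304 against 21 mo mice (SE 0.11, edgeR adjusted p = 0.175). Without 21 mo mouse 1 the values were 0.46 (edgeR adjusted p = 0.0204) and −0.47 (edgeR adjusted p = 0.0216).

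Of the loading factors, Cdc6, which brings the helicase to origins, was at 0.867 to 1.41 CPM in the 18 mo mice, 0.334, 2.39 and 2.98 CPM in the 21 mo mice and 0.318 to 0.715 CPM in the 21 mo/O304 mice. Cdc45, which activates the helicase, was at 1.98 to 2.88 CPM, then 0.870, 2.96 and 2.84 CPM, then 1.67 to 2.09 CPM in the same order. Cdc45 overlaps the more abundant Ufd1. In both genes 21 mo mice 2 and 3 were far above mouse 1.

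**Figure D4:**
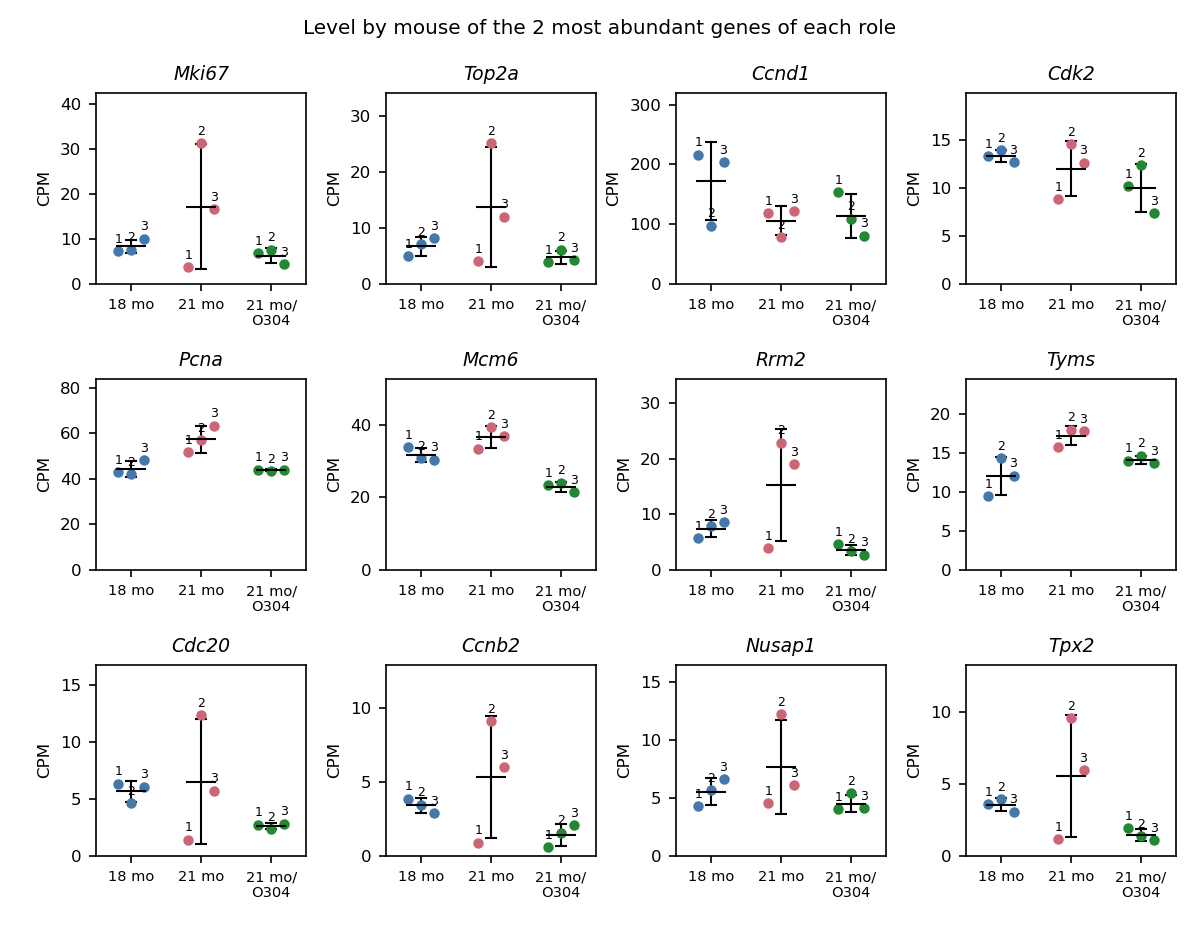
Points show the level of each mouse in CPM (vertical axis, from 0) for the 2 genes of each role with the highest mean FPKM, numbered by mouse, with the group mean and SD as bars (n = 3). Mki67, Top2a, Rrm2, Cdc20, Ccnb2 and Tpx2 are spread widely in the 21 mo group, with mouse 1 lowest, whereas Pcna, Mcm6 and Tyms are tight.

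Nucleotide supply held 3 genes with 3 patterns. Rrm2, the small subunit of ribonucleotide reductase, lies on chromosome 12 from 24708241 to 24714146 (GRCm38). It was at 5.70, 7.89 and 8.598 CPM in the 18 mo mice, 3.81, 22.8 and 19.0 CPM in the 21 mo mice and 4.54, 3.34 and 2.67 CPM in the 21 mo/O304 mice. Mice 2 and 3 of the 21 mo group were highest, and every 21 mo/O304 mouse was below every 18 mo mouse. Rrm2 had a log2 fold change of 1.04 in 21 mo against 18 mo mice (SE 0.54, edgeR adjusted p = 0.250) and −2.11 in 21 mo/O304 against 21 mo mice (SE 0.56, edgeR adjusted p = 0.175). Without 21 mo mouse 1 these were 1.52 (edgeR adjusted p = 0.00782) and −2.58 (edgeR adjusted p = 0.00379), and without mouse 2 the first was 0.62 (edgeR adjusted p = 0.561).

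Tyms encodes thymidylate synthase, which makes dTMP. Its values were 9.48, 14.4 and 12.1 CPM in the 18 mo mice, 15.8, 18.0 and 17.8 CPM in the 21 mo mice and 14.01, 14.7 and 13.7 CPM in the 21 mo/O304 mice. The 21 mo mice were above all others and the 21 mo/O304 mice were not below the 18 mo mice. Tyms had a log2 fold change of 0.52 in 21 mo against 18 mo mice (SE 0.17, edgeR adjusted p = 0.107) and −0.28 in 21 mo/O304 against 21 mo mice (SE 0.17, edgeR adjusted p = 0.342). With 21 mo mouse 1 left out these were 0.60 (edgeR adjusted p = 0.0464) and −0.35 (edgeR adjusted p = 0.198).

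Tk1, the thymidine kinase of the salvage route, was highest in the 18 mo group as a whole. It was at 10.4, 10.5 and 12.2 CPM in the 18 mo mice, 5.55, 10.7 and 8.38 CPM in the 21 mo mice and 5.70, 5.90 and 5.92 CPM in the 21 mo/O304 mice. Tk1 had in 21 mo/O304 against 18 mo mice a log2 fold change of −0.92 (SE 0.24, edgeR adjusted p = 0.337). Tk1 overlaps the more abundant Afmid, and reads of both genes could be counted on either.

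The mitotic cyclins, kinases and checkpoint genes differed widely between the 21 mo mice. All 13 were higher in 21 mo against 18 mo mice (median log2 fold change 0.74, range 0.20 to 1.73) and all 13 were lower in 21 mo/O304 against 21 mo mice (median −1.64, range −2.04 to −0.81). They were also all lower in 21 mo/O304 against 18 mo mice (median −0.81). At an unadjusted p under 0.05 there was 1 gene in the first comparison, below the background of 14% higher, 7 lower in the second, where 12.4% of all tested genes were, and 0 in the third. All 13 were higher in mouse 2 and in mouse 3 of the 21 mo group than in mouse 1, and 11 lay below the whole 18 mo range in mouse 1. Without mouse 1, 7 of the 13 passed the adjusted threshold in the first comparison and all 13 in the second. Of all tested genes 13.6% were then called higher in the first and 12.6% lower in the second. The medians of the 13 were 1.23 and −2.11 without mouse 1, against 0.21 and −0.95 without mouse 2.

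Cdk1, the kinase that drives entry into mitosis, was at 2.66, 3.51 and 5.26 CPM in the 18 mo mice, 1.40, 10.6 and 8.20 CPM in the 21 mo mice and 2.27, 1.97 and 1.21 CPM in the 21 mo/O304 mice. Mouse 1 of the 21 mo group lay within the range of the 21 mo/O304 mice. Cdk1 had a log2 fold change of 0.82 in 21 mo against 18 mo mice (SE 0.61, edgeR adjusted p = 0.413) and −1.89 in 21 mo/O304 against 21 mo mice (SE 0.64, edgeR adjusted p = 0.186). For Cdk1 these were 1.31 (edgeR adjusted p = 0.0315) and −2.37 (edgeR adjusted p = 0.00787) without 21 mo mouse 1, and 0.33 (edgeR adjusted p = 0.806) and −1.40 (edgeR adjusted p = 0.352) without mouse 2. Its partner cyclin Ccnb1 was at 0.929, 1.97 and 2.32 CPM, then 0.401, 8.35 and 4.12 CPM, then 1.10, 1.61 and 0.828 CPM in the 3 groups, and Ccnb1 had a log2 fold change of −1.86 in 21 mo/O304 against 21 mo mice (SE 0.84, edgeR adjusted p = 0.248), which was −2.40 (edgeR adjusted p = 0.0151) without mouse 1 and −0.95 (edgeR adjusted p = 0.550) without mouse 2. Both genes were named here after their values were seen, and both have annotated pseudogenes.

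Ccnb2, the second B-type cyclin, was at 3.84, 3.45 and 2.88 CPM in the 18 mo mice, 0.870, 9.09 and 6.00 CPM in the 21 mo mice and 0.582, 1.55 and 2.04 CPM in the 21 mo/O304 mice. Ccnb2 had a log2 fold change of 0.65 in 21 mo against 18 mo mice (SE 0.70, edgeR adjusted p = 0.569) and −1.94 in 21 mo/O304 against 21 mo mice (SE 0.73, edgeR adjusted p = 0.202). The Ccnb2 values were 1.17 (edgeR adjusted p = 0.0796) and −2.45 (edgeR adjusted p = 0.0112) without 21 mo mouse 1, and 0.018 (edgeR adjusted p = 0.993) and −1.31 (edgeR adjusted p = 0.403) without mouse 2. Ccna2, the S and G2 cyclin, went from 1.40 CPM in 21 mo mouse 1 to 9.78 CPM in mouse 2, against 2.17 to 4.62 CPM in the 18 mo mice and 1.40 to 3.04 CPM in the 21 mo/O304 mice.

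The anaphase-promoting complex was represented by its activator Cdc20 and its ubiquitin-conjugating enzyme Ube2c. Cdc20 was at 6.32, 4.62 and 6.05 CPM in the 18 mo mice, 1.40, 12.3 and 5.73 CPM in the 21 mo mice and 2.73, 2.32 and 2.80 CPM in the 21 mo/O304 mice. A single mouse thus stood above the 18 mo range, and Cdc20 overlaps the more abundant Elovl1. Cdc20 had a log2 fold change of 0.20 in 21 mo against 18 mo mice (SE 0.59, edgeR adjusted p = 0.851) that became −0.67 without 21 mo mouse 2, and one of −1.31 in 21 mo/O304 against 21 mo mice (SE 0.60, edgeR adjusted p = 0.254) that became −0.45 without the same mouse. Ube2c was at 2.14, 9.38 and 3.76 CPM in the 21 mo mice, all above the 1.28 to 1.91 CPM of the 21 mo/O304 mice. For 21 mo mouse 1 this order rests on the scaling, since it and 21 mo/O304 mouse 2 both had 32 counts. The 18 mo mice had 1.87 to 3.53 CPM of Ube2c.

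Among the checkpoint kinases, Bub1 was at 0.396 to 0.863 CPM in the 18 mo mice, 0.401, 3.18 and 2.43 CPM in the 21 mo mice and 0.407 to 0.637 CPM in the 21 mo/O304 mice. Bub1 had a log2 fold change of 1.73 in 21 mo against 18 mo mice (SE 0.67, edgeR adjusted p = 0.152) and −2.04 in 21 mo/O304 against 21 mo mice (SE 0.69, edgeR adjusted p = 0.185), or 2.22 (edgeR adjusted p = 0.0120) and −2.52 (edgeR adjusted p = 0.0107) without 21 mo mouse 1, and Bub1 was named after its values were seen. Bub1b, for BubR1, was at 1.61, 5.74 and 4.90 CPM in the 21 mo mice, above all 21 mo/O304 mice at 0.756 to 1.55 CPM. For 21 mo mouse 1 this order rests on the scaling, since it had 24 counts and 21 mo/O304 mouse 2 had 26. In Bub1b the 18 mo mice, at 1.66 to 2.32 CPM, were also above every 21 mo/O304 mouse.

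In the mitotic kinases Aurka, Aurkb and Plk1 and the chromosomal passenger proteins Birc5 (survivin) and Cdca8 (borealin), mouse 1 was again the lowest of the 21 mo mice. Plk1 was at 0.334, 5.34 and 3.94 CPM in them, against 1.55 to 2.28 CPM in the 18 mo mice and 0.764 to 1.25 CPM in the 21 mo/O304 mice. Aurkb was at 0.602, 5.23 and 2.24 CPM in them and Aurka at 1.00, 5.34 and 4.40 CPM. In Birc5 and Cdca8 mouse 3 was higher than mouse 2, with 6.87 against 6.48 CPM and 4.31 against 3.30 CPM, whereas mouse 2 was higher in the other 11 mitotic genes.

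The spindle, kinetochore and cytokinesis genes had fold changes in the same directions as the mitotic kinases. All 9 were higher in 21 mo against 18 mo mice (median log2 fold change 0.76, range 0.46 to 1.47), all 9 were lower in 21 mo/O304 against 21 mo mice (median −1.60, range −2.45 to −0.76) and all 9 were lower in 21 mo/O304 against 18 mo mice (median −0.64). The unadjusted threshold was passed by 1, 5 and 0 of them, where 14% of all tested genes were higher in the first comparison and 12.4% lower in the second. Without 21 mo mouse 1, 5 and 8 of the 9 passed the adjusted threshold in the first and second comparison. Of all tested genes 13.6% were then called higher in the first and 12.6% lower in the second. The medians of the 9 were then 1.17 and −2.01. Without mouse 2 the medians were 0.13 and −0.88, and none passed.

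Hmmr, a spindle protein that also binds hyaluronan, lies on chromosome 11 from 40701395 to 40733422 (GRCm38). It was at 1.55, 2.03 and 1.81 CPM in the 18 mo mice, 1.07, 8.58 and 5.27 CPM in the 21 mo mice and 1.05, 0.834 and 0.828 CPM in the 21 mo/O304 mice. The 21 mo/O304 mice were below all others, although 21 mo mouse 1 was close to them. In counts, 21 mo mouse 1 had 16 and 21 mo/O304 mouse 1 had 18, so their order rests on the scaling. Hmmr had in 21 mo/O304 against 21 mo mice a log2 fold change of −2.45 (SE 0.63, edgeR adjusted p = 0.175), the lowest of the 45, and −2.93 (edgeR adjusted p = 0.00434) without 21 mo mouse 1. In 21 mo against 18 mo mice it was 1.47 (SE 0.60, edgeR adjusted p = 0.166), and 0.81 (edgeR adjusted p = 0.455) without mouse 2, where Hmmr was named after its values were seen.

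Tpx2, which starts microtubules at the spindle and activates Aurora A, was at 3.59, 3.94 and 3.05 CPM in the 18 mo mice, 1.14, 9.55 and 5.96 CPM in the 21 mo mice and 1.92, 1.37 and 1.08 CPM in the 21 mo/O304 mice. Tpx2 had a log2 fold change of 0.66 in 21 mo against 18 mo mice (SE 0.60, edgeR adjusted p = 0.502) and −1.92 in 21 mo/O304 against 21 mo mice (SE 0.63, edgeR adjusted p = 0.182). For Tpx2 these were 1.15 (edgeR adjusted p = 0.0357) and −2.41 (edgeR adjusted p = 0.00627) without 21 mo mouse 1, and 0.0046 (edgeR adjusted p = 0.998) and −1.28 (edgeR adjusted p = 0.352) without mouse 2. Nusap1, a binder of spindle microtubules, differed less. It was at 4.27, 5.67 and 6.62 CPM, then 4.55, 12.2 and 6.09 CPM, then 4.01, 5.36 and 4.07 CPM, and a single mouse was above the 18 mo range. Nusap1 had a log2 fold change of 0.46 in 21 mo against 18 mo mice (SE 0.37, edgeR adjusted p = 0.437), −0.07 without 21 mo mouse 2, and −0.76 in 21 mo/O304 against 21 mo mice (SE 0.37, edgeR adjusted p = 0.267), −0.24 without the same mouse.

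The kinetochore motor Cenpe was at 1.40, 7.84 and 4.99 CPM in the 21 mo mice and Cenpf at 0.535, 10.1 and 5.31 CPM, against 3.05 to 3.47 CPM and 1.92 to 2.88 CPM in the 18 mo mice. Prc1, which bundles the central spindle, was at 0.602, 8.58 and 5.41 CPM in the 21 mo mice, and Racgap1, a regulator of cytokinesis, at 1.87, 7.67 and 8.11 CPM. The spindle motor Kif11 was at 1.54, 7.27 and 4.08 CPM and Kif20a at 1.20, 6.54 and 2.57 CPM. In all 6 of these genes mouse 1 was the lowest of the 21 mo mice, and in all but Racgap1 mouse 2 was the highest.

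The 2 high mice of the 21 mo group differed from each other by the role of the genes. Mouse 2 was above mouse 3 in 32 of the 45 genes, where it was so in 50.5% of all tested genes. This was the case in 11 of 13 mitotic and 8 of 9 spindle genes, with median log2 differences of 0.43 and 0.69, but in 4 of 9 replication genes and 4 of 9 G1 genes, with medians of −0.03 and −0.01. Mouse 3 was above mouse 1 in all 45 genes and mouse 2 above mouse 1 in 43, the exceptions being Ccnd1 and Ccnd2. These are comparisons of single mice and carry no test.

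Other mitosis and replication genes, in lists without any of the 45, had medians of the same sign as the 45 in all 3 comparisons. These lists too were chosen with earlier results of these data known. The 21 mo mice were split here too. The median log2 CPM difference from the 18 mo mean was −0.34, 1.13 and 0.83 in mice 1, 2 and 3 for the mitosis list. For the replication list it was −0.19, 0.34 and 0.45. Of 77 tested genes of mitosis, 16 were higher and 1 lower at an unadjusted p under 0.05 in 21 mo against 18 mo mice (median log2 fold change 0.77), 1 was higher and 37 lower in 21 mo/O304 against 21 mo mice (median −1.17), and 2 and 4 in 21 mo/O304 against 18 mo mice (median −0.36). Of 56 tested genes of replication, 8 were higher and 2 lower (median 0.29), 2 higher and 16 lower (median −0.36), and 3 higher and 3 lower (median −0.11) in the same order. Over all tested genes 14% were higher and 12% lower in the first comparison, 8.27% higher and 12.4% lower in the second, and 4.33% higher and 5.33% lower in the third. The 8 of 56 replication genes is thus close to the background. None in these lists passed the adjusted threshold with edgeR on all 9 libraries. Orc1, Exo1, Cdc25c, Cenph, Sgo2a, Kif14 and Troap had too few counts to be tested.

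Single genes of these lists show the range. Mad2l1, of the spindle checkpoint, was at 4.75 to 6.32 CPM in the 18 mo mice, 7.63, 13.01 and 8.93 CPM in the 21 mo mice and 4.46 to 4.83 CPM in the 21 mo/O304 mice, so the 21 mo mice were above all others (log2 fold changes 0.89 and −1.09, edgeR adjusted p = 0.0844 and 0.175). Uhrf1, which guides maintenance methylation behind the fork, was at 1.87, 19.0 and 15.3 CPM in the 21 mo mice and 1.59 to 2.33 CPM in the 21 mo/O304 mice (log2 fold change −2.60, edgeR adjusted p = 0.175). Mcm10 and Gmnn (geminin) were lower in 21 mo than in 18 mo mice, with log2 fold changes of −0.96 and −0.55 (edgeR adjusted p = 0.0942 and 0.0977). Kif20b went against its list, at 13.4, 16.03 and 16.5 CPM in the 21 mo/O304 mice against 4.12 to 7.89 CPM in the 21 mo mice and 7.99 to 8.81 CPM in the 18 mo mice (log2 fold change 1.26 against 21 mo, edgeR adjusted p = 0.175).

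The 25 genes of G1 control and the DREAM complex, which holds the cell cycle genes silent in resting cells, had medians near 0. At an unadjusted p under 0.05, 4 were higher and 0 lower in 21 mo against 18 mo mice (median 0.08), 0 and 1 in 21 mo/O304 against 21 mo mice (median −0.04) and 2 and 0 in 21 mo/O304 against 18 mo mice (median 0.08). The 4 of 25 is close to the 14% of all tested genes that were higher in the first comparison. The growth regulator Myc stood out in this list, at 5.20, 3.20 and 4.47 CPM in the 18 mo mice, 10.03, 25.5 and 23.4 CPM in the 21 mo mice and 6.86, 6.62 and 7.70 CPM in the 21 mo/O304 mice. The log2 fold changes of Myc were 2.19 in 21 mo against 18 mo mice (SE 0.35, edgeR adjusted p = 0.0626) and −1.48 in 21 mo/O304 against 21 mo mice (SE 0.34, edgeR adjusted p = 0.175). Rb1 and Tfdp1 were higher by log2 fold changes of 0.48 and 0.43 in 21 mo against 18 mo mice (edgeR adjusted p = 0.106 and 0.0975).

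Of the inhibitors of cyclin-dependent kinases, which hold the cycle back, Cdkn1a differed most clearly in the 21 mo group. All 6 tested inhibitors had a fold change above 0 in 21 mo against 18 mo mice (median 0.75, range 0.01 to 1.98), but in 5 of the 6 the groups overlapped, and 5 of 6 were lower in 21 mo/O304 against 21 mo mice (median −0.47). The median was 0.14 in 21 mo/O304 against 18 mo mice. At an unadjusted p under 0.05, 1 was higher in the first comparison (Cdkn1a), 2 were lower in the second (Cdkn1a and Cdkn2b) and 1 was higher in the third (Cdkn1b), and none passed the adjusted threshold with edgeR. Over all tested genes 14% were higher in the first, 12.4% lower in the second and 4.33% higher in the third. The 1 of 6 in the first is thus near the background. Cdkn1a, which encodes the broad inhibitor p21, had 23.9, 44.3 and 79.8 CPM in the 21 mo mice, against 10.04 to 16.3 CPM in the 18 mo and 12.2 to 15.7 CPM in the 21 mo/O304 mice. Here mouse 1 too was above the 18 mo range. Cdkn2b was at 1.61, 4.94 and 15.1 CPM in the 21 mo mice, 0.453 to 4.58 CPM in the 18 mo mice and 0.775 to 1.15 CPM in the 21 mo/O304 mice, and Cdkn1c at 10.6, 18.4 and 59.8 CPM in the 21 mo mice. Cdkn1b, Cdkn2c and Cdkn2d had log2 fold changes between 0.01 and 0.28 in 21 mo against 18 mo mice. Cdkn2a, with 0 to 59 counts, was not tested.

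The injured tubule and fibroblast marker sums, like most cell cycle genes, were higher in 21 mo mice 2 and 3 than in mouse 1. The proximal tubule sum was lower in mice 2 and 3. All 8 markers of injured tubule lay above the 18 mo range in mice 2 and 3, and all 8 were higher in 21 mo against 18 mo mice and lower in 21 mo/O304 against 21 mo mice at an unadjusted p under 0.05. Of all tested genes 37.3% and 41.3% lay above that range in these mice, and 14% were higher and 12.4% lower. The macrophage list had 7 higher and 6 lower of 8, the fibroblast list 4 and 3 of 8, and the neutrophil list 4 and 3 of 4 tested. Of the 10 proximal tubule markers 3 were lower in 21 mo against 18 mo mice. The 10 proximal tubule markers summed to 15840, 8178 and 2338 CPM in 21 mo mice 1, 2 and 3 and to 16126 to 16473 CPM in the 21 mo/O304 mice. The 8 macrophage markers summed to 388, 433 and 1291 CPM in the 21 mo mice, against 193 to 281 CPM in the 18 mo and 295 to 303.7 CPM in the 21 mo/O304 mice. In this sum mouse 1 too was above both ranges, unlike in most cell cycle genes. The 8 fibroblast markers summed to 143, 587 and 1404 CPM, against 184 to 285 CPM and 117 to 274 CPM. Thus the mouse with the most macrophage and fibroblast signal was mouse 3, and the mouse with the highest mitotic genes was mouse 2. The part of these cells in the result was not tested.

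Lymphoid and other lists differed in how their sums split the 21 mo mice. The T cell markers summed to 35.99, 15.1 and 20.9 CPM in the 21 mo mice, 11.1 to 18.0 CPM in the 18 mo mice and 13.96 to 46.1 CPM in the 21 mo/O304 mice, with mouse 1 of the 21 mo group above mice 2 and 3. The B cell markers summed to 5.49 to 15.4 CPM, the plasma cell markers to 299 to 990 CPM and the neutrophil markers to 19.8 to 59.9 CPM in the 21 mo mice, against 4.93 to 7.18, 285 to 412 and 6.84 to 12.5 CPM in the 18 mo mice and 7.39 to 16.6, 481 to 1077 and 13.8 to 20.4 CPM in the 21 mo/O304 mice. Mouse 1 was the lowest of the 21 mo mice in the B cell and plasma cell sums and the highest in the neutrophil sum. It was also the highest of them in the sums that follow, except that of podocytes. In 21 mo mice 1, 2 and 3, endothelium markers summed to 321, 205 and 180 CPM and podocyte markers to 213, 199 and 592 CPM. Thick limb and distal nephron markers summed to 7428, 6985 and 3590 CPM. Erythroid markers summed to 883, 15.5 and 5.27 CPM and adipocyte markers to 129, 55.0 and 35.3 CPM. In the 18 mo mice these were 231 to 388, 200 to 290, 4206 to 8563, 26.6 to 237 and 46.2 to 90.5 CPM, and in the 21 mo/O304 mice 272 to 524, 217 to 371, 3330 to 5461, 34.0 to 227 and 110 to 283 CPM. No marker list had a gene at 0 in every library.

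**Figure D5:**
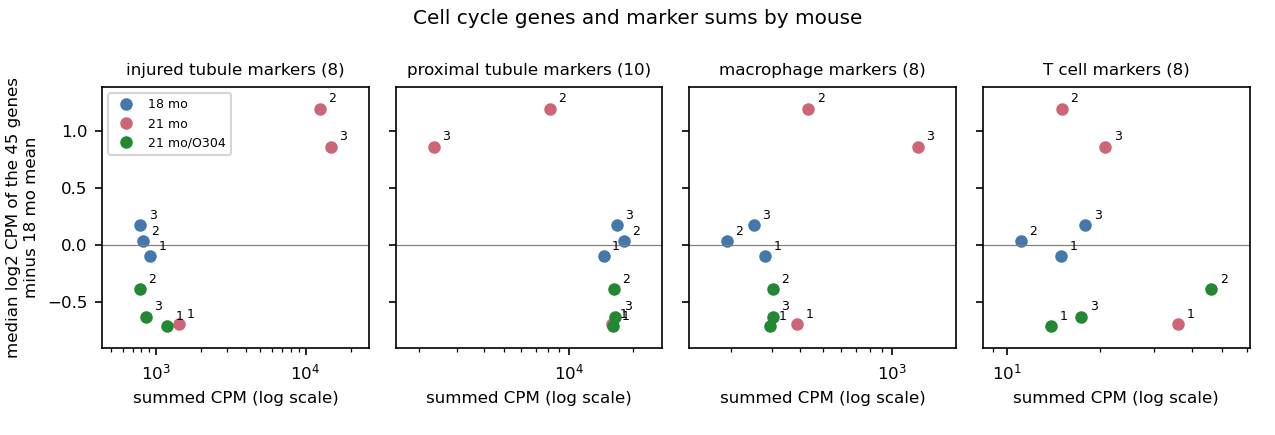
Each point is 1 mouse, numbered within its group, with the summed CPM of a marker list on the horizontal log axis and the median log2 CPM of the 45 genes minus the 18 mo mean on the vertical axis. Mice 2 and 3 of the 21 mo group, at 1.19 and 0.86, lie apart from the other 7 in injured tubule markers. Their sums there are 12477 and 14748 CPM, of which Spp1 makes up 11162 and 12555 CPM. In T cell markers they do not lie apart.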

How the data were processed

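Kidney RNA of 9 mice was sequenced, 1 library per mouse, so p-values measure the spread between mice. The authors aligned reads with HISAT2 (2.0.5) and counted them per gene with featureCounts (1.5.0-p3), and these raw counts were deposited. The authors also deposited FPKM, which divides a count by gene length and library size. FPKM values serve here only to compare levels between genes. The submitters' notes name GRCm38/mm10. Strand and multi-mapping settings are not given in the sources used here, so overlapping genes and those with pseudogenes are uncertain. The authors' own test results (DESeq2 1.20.0), deposited in the same table, were not used.

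Genes were filtered (filterByExpr, minimum count 10, minimum total 15), scaled by TMM (factors 0.928 to 1.20) and tested with edgeR's two-sided quasi-likelihood test (edgeR 4.0.16, R 4.3.3) on all 9 libraries with 3 group means and 6 residual degrees of freedom. P-values were adjusted by Benjamini-Hochberg over the 15902 tested genes. Log2 CPM used a prior count of 2 where medians and SDs of log2 values are given. The tests were tried on simulated data. Members, gene lists (mitosis, replication, G1 control and DREAM, kinase inhibitors) and 13 marker lists were chosen with earlier results of these data known, so no set test was run. Named were the 2 members of each role with the highest FPKM, the 5 with the smallest p per comparison, up to 3 genes per list and comparison, and all kinase inhibitors. Values of other members are given as ranges or per mouse. Alternatives were DESeq2 (1.42.0), its size factors, upper-quartile factors, no filter on low counts, only the 6 libraries compared, a block for replicate number, limma (3.58.1) voom with quality weights, and each library left out.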

Additional observations from a re-analysis of the deposited data

How the results depend on the processing

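The direction of the median over the 45 genes held under every alternative run, in all 3 comparisons, while the counts of calls did not hold. In 21 mo against 18 mo mice, the number of all genes past the adjusted threshold was 3 with edgeR, 2058 with DESeq2, 576 with no filter on low counts, 0 with only the 6 libraries compared and 8409 with voom and quality weights. The members called there were 1 with DESeq2 and 38 with voom, and those with an unadjusted p under 0.05 were 5 with 6 libraries and 39 with voom. In 21 mo/O304 against 21 mo mice, all genes called were 931 with DESeq2, 17 with no filter and 6528 with voom, members called 10 with DESeq2 and 40 with voom, and members at the unadjusted threshold 42 with voom. In 21 mo/O304 against 18 mo mice, all genes called were 125 with DESeq2, 22 with 6 libraries and 415 with voom, members called 2 with voom, and members at the unadjusted threshold 7 with DESeq2, 8 with no filter, 17 with 6 libraries and 8 with voom. With each library left out in turn, all genes called went from 0 to 4186, from 0 to 3808 and from 0 to 12 in the 3 comparisons, members called from 0 to 21, from 0 to 36 and 0 throughout, and members at the unadjusted threshold from 4 to 34, from 9 to 38 and from 3 to 17. The highest counts came without 21 mo mouse 1, except the 12, which came without 21 mo mouse 3. Without 21 mo mouse 1, 40.2%, 38.7% and 12.5% of all tested genes passed the unadjusted threshold in the 3 comparisons. That share is not given here for DESeq2, voom, no filter, the 6 libraries or the replicate block. Their member counts at the unadjusted threshold therefore cannot be read against a background. The median of the third comparison went from −0.68 to −0.47. The log2 fold change of Cdk2 in 21 mo against 18 mo mice was 0.13 with voom and went from −0.32 to 0.047 over libraries left out, that of Cdc20 from −0.67 to 0.69 and that of Nusap1 from −0.067 to 0.74. For Ccnd1 in 21 mo/O304 against 21 mo mice it went from −0.18 to 0.30, and was −0.07 without 21 mo mouse 2. The replicate numbers did not pair the mice, since the correlations of deviations between libraries of the same number went from −0.13 to 0.17. With the replicate number as a block, 0 of all genes passed in 21 mo against 18 mo mice, 0 members passed in each comparison, 6, 24 and 5 members had an unadjusted p under 0.05, and Cdc20 changed to −0.026 in the first. The causes were not tested. With 3 mice a group and few counts for many members, differences in the lowest genes could not be resolved.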
